A study of Arabidopsis thaliana with 12 samples.

Results

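PLATZ proteins (plant AT-rich sequence and zinc-binding proteins) form a plant-specific family first described in pea. They bind A/T-rich DNA in a zinc-dependent manner and act on transcription. In maize endosperm, a PLATZ protein works with the RNA polymerase III machinery. In Arabidopsis the best studied member is AT1G31040, known as ORESARA15, which promotes cell proliferation in young leaves and delays leaf senescence, and other members have been tied to the tolerance of drying and salt. Of 9 PLATZ loci looked for on the ATH1 array, 7 were found, each as 1 probe set whose only annotated gene was that locus, among 22746 probe sets tested. These were AT1G76590, AT1G21000, AT1G31040, AT1G32700, AT4G17900, AT1G43000 and AT5G46710. The loci AT2G27930 and AT3G60670 were not analysed here. AT1G76590, AT1G21000 and AT1G31040 were on the study's own list of changed probe sets, so tests of them between these groups are no independent evidence, while the other 4 were not.

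The plants were Arabidopsis thaliana ecotype Col-0. The tip of the primary inflorescence stem had been cut off and wedge-grafted back onto the plant it came from, so that scion (above the union) and rootstock (below it) had the same genotype. Newly emerged, unopened flower buds and leaves were taken from side branches of the scion and of the rootstock 10 to 20 days after grafting, which gives 4 groups of 3 arrays (scion flower bud, rootstock flower bud, scion leaf and rootstock leaf), 12 in all. Every plant was grafted, and those whose scions grew best had been chosen, so position on the stem and grafting cannot be told apart, and a lower signal from fewer cells cannot be told apart from less RNA per cell. The values are log2 signals centred so that the median of every probe set across all 12 arrays is 0. They order the samples within a gene but say nothing of one gene's level against another's.

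Scion flower bud replicate 1 stood apart from the other 5 bud arrays. On the first principal component, which held 73% of the variance and separated organs, it lay at -47.5, against -97.3 to -78.8 for the other buds. The median signal over 8 probe sets specific to rootstock leaves (at least 5 log2 units above every rootstock bud array) was 8.61% of the rootstock leaf level on this array. The same share was 0.523% and 0.697% on scion flower bud replicates 2 and 3 and at most 0.0583% on the rootstock buds. The 61 bud-specific probe sets lay at least 5 log2 units higher in every rootstock bud array than in every rootstock leaf array. Scion leaf replicates 1 and 3 held 1.03% and 1.75% of their signal, and replicate 2 held 0.0605%. Scion buds 1, 2 and 3 held 57.3%, 86.3% and 69.2% of that signal, and rootstock buds 95.7% to 103%. Both sets were picked on the rootstock arrays, and both shares were scaled between the mean rootstock bud and leaf levels. Rootstock values near either end were therefore set by that choice, and the scion values were subject to that selection. Among scion buds, replicate 3 was also lower in bud signal than replicate 2, with little leaf signal. Of the 12 flower bud marker genes listed, 9 were measured, and their median ran from 1.53 to 2.15 in scion buds, 2.31 to 2.55 in rootstock buds, -4.06 to -1.53 in scion leaves and -4.87 to -4.32 in rootstock leaves. Of the 9, 8 were higher in buds than in leaves. SEP4 (AT2G03710) was lower, by -0.41 in the rootstock (not called) and -1.04 in the scion (called). All 9 markers were on the study's list of changed probe sets and 1 was named by the platform annotation, so the gap between their scion and rootstock leaves was subject to that selection. Only 2 of 15 listed leaf markers were measured (RCA, the Rubisco activase, and HPR1, a photorespiratory reductase), with medians of -0.73 to -0.26 in scion buds, -1.07 to -0.86 in rootstock buds and 0.31 to 0.58 in leaves. The part of these differences in the results that follow was not tested. Values given without an array leave out all of its signal, so they do not test that part either.

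In flower buds, AT1G76590 and AT1G21000 were measured about 6-fold higher in the scion than in the rootstock, but the scion arrays were widely spread and neither gene passed the test across all probe sets. AT1G76590 read 2.18, -1.62 and 0.10 in scion buds 1, 2 and 3 and -2.36, -2.42 and -2.40 in rootstock buds. The rootstock arrays were almost equal, and all 3 scion arrays lay above them, replicate 2 by the least. The difference was 2.61 ± 0.87 on the log2 scale (SE, n = 3 and 3, 95% interval 0.68 to 4.54), a fold of 6.11, with an adjusted p of 0.258 in limma. AT1G21000 read 1.45, -1.63 and -0.50 in scion buds and -2.70, -2.61 and -3.20 in rootstock buds. Again the groups did not overlap and the scion replicates lay in the order 1, 3, 2 from high to low. Its difference was 2.61 ± 0.69 (SE, n = 3 and 3, 95% interval 1.09 to 4.12), a fold of 6.10, with an adjusted p of 0.147 in limma. By size of difference the 2 genes ranked 42 and 44 from the top of the 22746 probe sets. Non-overlap with the scion higher was found for 11.1% of all probe sets.

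AT1G31040 (ORESARA15) was also measured higher in scion buds, though here 1 scion array fell among those of the rootstock. It read 2.14, 0.14 and 2.05 in scion buds and 0.17, 0.02 and 0.28 in rootstock buds. Replicates 1 and 3 were thus well above the rootstock and replicate 2 was within its range. The difference was 1.29 ± 0.43 (SE, n = 3 and 3, 95% interval 0.34 to 2.23), a fold of 2.44, with an adjusted p of 0.258 in limma.

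AT1G32700 and AT4G17900 had a smaller difference of the same sign. AT1G32700 read 0.20, -1.47 and 0.14 in scion buds, while its rootstock bud values of -1.23, -1.23 and -1.21 were nearly the same. Scion replicate 2 was the lowest of the 6. The difference was 0.85 ± 0.42 (SE, n = 3 and 3, adjusted p = 0.505, limma). AT4G17900 read -0.10, -1.38 and -0.43 in scion buds and -1.37, -1.21 and -1.21 in rootstock buds, and its scion replicate 2 was again the lowest. Its difference was 0.63 ± 0.32 (SE, n = 3 and 3, adjusted p = 0.531, limma). Both depended on single scion arrays. The difference was 0.56 for AT1G32700 and 0.36 for AT4G17900 without scion flower bud replicate 1, and 1.39 and 1.00 without replicate 2, none of them called.

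AT1G43000 and AT5G46710 had differences of the opposite sign, both small. AT1G43000 read -0.46, -0.14 and -0.40 in scion buds and -0.13, 0.11 and -0.22 in rootstock buds, a difference of -0.26 ± 0.15 (SE, n = 3 and 3, adjusted p = 0.594, limma). AT5G46710 read -0.39, -0.63 and 0.16 in scion buds and 0.26, 0.30 and -0.16 in rootstock buds, a difference of -0.42 ± 0.26 (SE, n = 3 and 3, adjusted p = 0.636, limma). In both genes the groups overlapped.

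**Figure D1:**
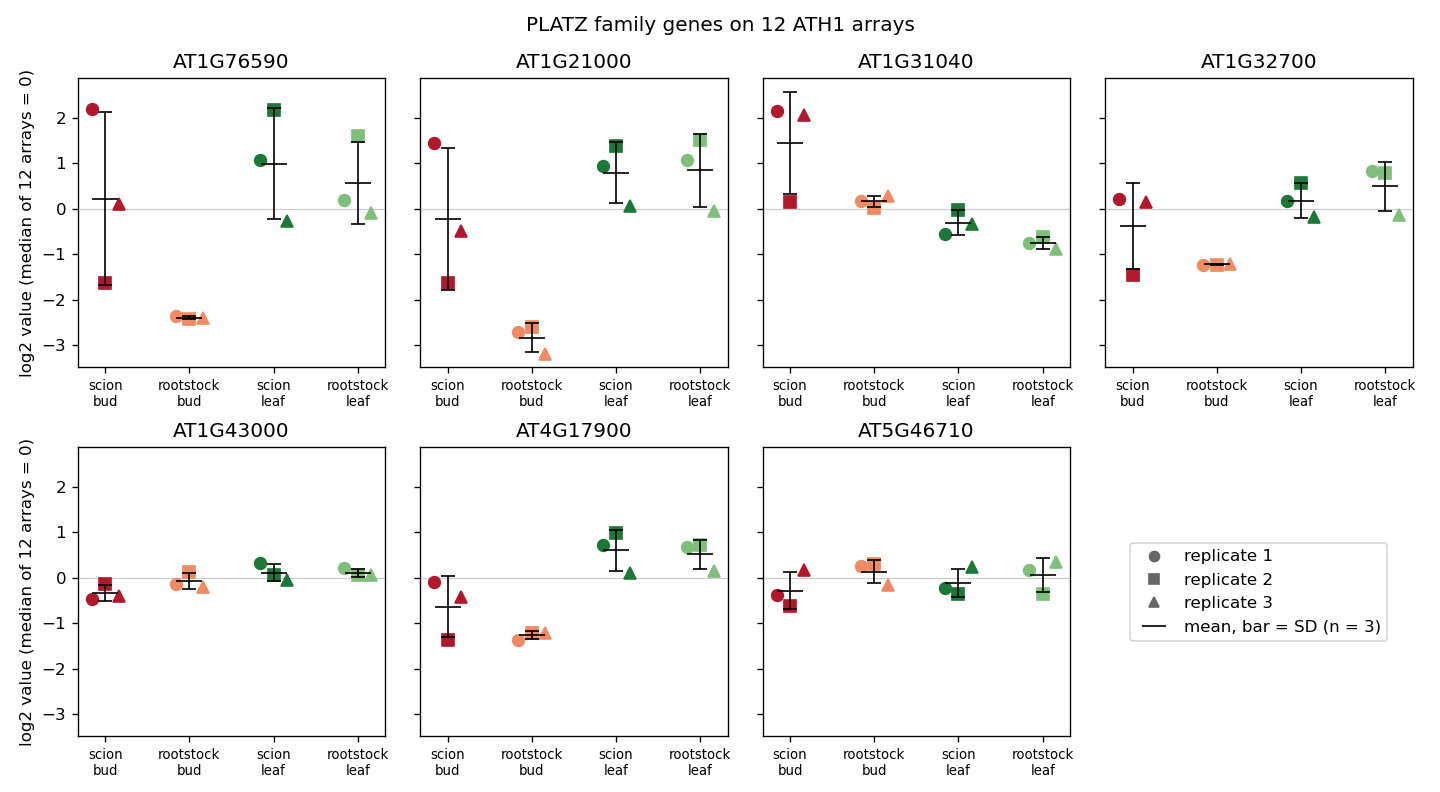
Log2 value (y axis, median of the 12 arrays set to 0) of each of the 7 PLATZ genes in the 4 groups. Symbols are single arrays by replicate number, and the horizontal line and bar are the mean and SD of 3 arrays. The 3 rootstock bud arrays of AT1G76590 lie between -2.42 and -2.36, and the 3 scion bud arrays between -1.62 and 2.18.

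Across the family, 5 of 7 genes were measured higher and 2 lower in scion than in rootstock buds, with a median log2 difference of 0.85 against -0.04 over all probe sets. None of the 7 passed the limma test (adjusted p at most 0.05 and at least 2-fold), which 0.237% of all probe sets passed as higher and 0.158% as lower. At an unadjusted p of at most 0.05 in limma there were 3 of the 7 and 2506 of the 22746 probe sets. These 3 were AT1G76590, AT1G21000 and AT1G31040, all on the study's own list of changed probe sets, and no other member reached it. The family's counts and median include them, so they were subject to that selection and are not independent evidence. Of the 4 members outside that list, AT1G32700 and AT4G17900 were measured higher and AT1G43000 and AT5G46710 lower. AT1G21000 and AT1G31040 also met another criterion, an adjusted p of at most 0.05 in a plain F test over the 4 groups with a 2-fold difference between the bud groups. That p is for any difference among the 4 groups, with no shared estimate of the spread, and does not test scion against rootstock buds. Without scion flower bud replicate 2, limma called 2 of the 7, AT1G21000 at 3.31 (adjusted p = 0.0375) and AT1G31040 at 1.94 (adjusted p = 0.00234). Without scion flower bud replicate 1, the bud array with the most leaf signal, AT1G76590 differed by 1.63 and AT1G21000 by 1.77, and neither was called.

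The same comparison in leaves gave small differences in every member. AT1G76590 read 1.06, 2.17 and -0.26 in scion leaves 1, 2 and 3 and 0.19, 1.59 and -0.10 in rootstock leaves, a difference of 0.43 ± 0.87 (SE, n = 3 and 3, 95% interval -1.50 to 2.36, adjusted p = 0.978, limma). AT1G21000 read 0.95, 1.37 and 0.05 in scion leaves and 1.07, 1.51 and -0.05 in rootstock leaves, a difference of -0.05 ± 0.69 (SE, n = 3 and 3, 95% interval -1.57 to 1.46, adjusted p = 0.998, limma). In both genes and both positions, replicate 2 was the highest and replicate 3 the lowest, so the arrays were ordered by replicate number more than by position. AT1G31040 read -0.56, -0.02 and -0.33 in scion leaves and -0.76, -0.62 and -0.88 in rootstock leaves, a difference of 0.45 ± 0.43 (SE, n = 3 and 3, 95% interval -0.50 to 1.40, adjusted p = 0.938, limma). It was the 1 member whose scion leaf arrays all lay above the rootstock leaf arrays, which held for 4.01% of all probe sets.

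The other 4 genes differed between scion and rootstock leaves by -0.31 (AT1G32700) to 0.09 (AT4G17900). None of the 7 was called by limma at adjusted p 0.05 and 2-fold, against 0.0264% of all probe sets higher and 0.0264% lower, and none had an unadjusted p of at most 0.05, against 1626 of all probe sets. With 3 arrays a group, in a fit that did not pair leaf arrays by number, the intervals remained wide. Between leaf arrays of equal number, scion minus rootstock was -0.12, -0.13 and 0.10 for AT1G21000 in replicates 1 to 3. For AT1G76590 it was 0.87, 0.58 and -0.17. For AT1G76590 the upper bound of 2.36 lies close to the 2.61 measured in buds.

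**Figure D2:**
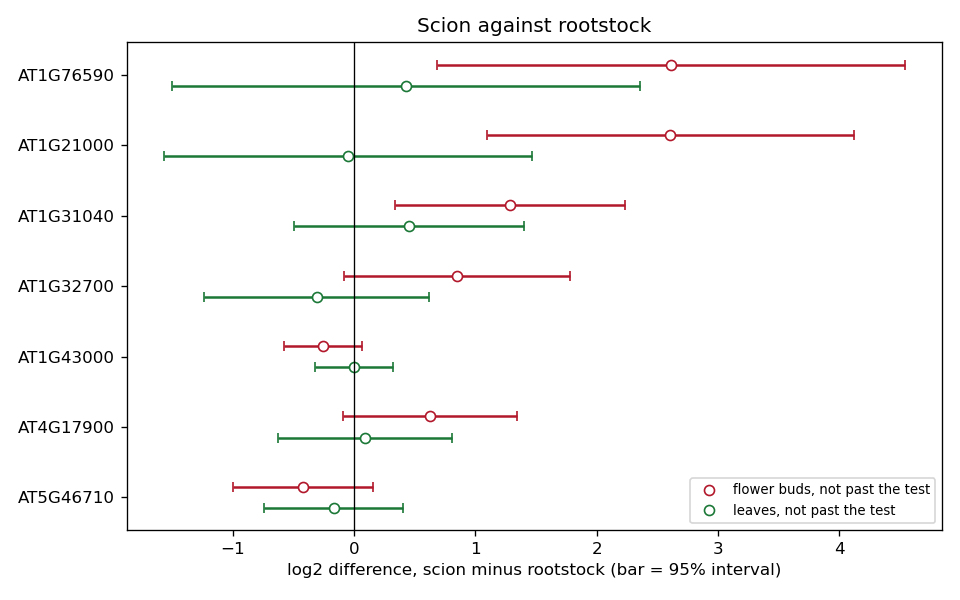
Log2 difference of scion minus rootstock (x axis) for each PLATZ gene in flower buds and in leaves, with 95% intervals from the limma fit over 12 arrays. Open circles mark genes not past the adjusted test, which here are all 7 in both organs. The unadjusted intervals of AT1G76590, AT1G21000 and AT1G31040 in buds lie above 0. All of these genes were on the study's own list of changed probe sets.

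Whether the scion difference itself differed between buds and leaves was tested as an interaction. It was largest in AT1G21000, at 2.66 ± 0.97 (SE, 12 arrays, 95% interval 0.52 to 4.81, unadjusted p = 0.0198, adjusted p = 0.506, limma), and came to 2.18 ± 1.23 in AT1G76590 (adjusted p = 0.767), 1.16 ± 0.59 in AT1G32700 (adjusted p = 0.720) and 0.84 ± 0.61 in AT1G31040 (adjusted p = 0.829). Without scion flower bud replicate 1 the interaction was 1.82 in AT1G21000, 1.20 in AT1G76590 and 0.49 in AT1G31040, and without replicate 2 it was 3.36, 3.10 and 1.49. No member passed, AT1G21000 alone had an unadjusted p of at most 0.05 (1760 of all probe sets did), and 0% of all probe sets passed, so at this number of arrays the scion differences in the 2 organs were not told apart.

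Flower buds against leaves divided the family more clearly. In the rootstock, AT1G21000 was 12.8-fold lower in flower buds than in leaves (-3.68 ± 0.69, SE, n = 3 and 3, adjusted p = 0.00154, limma), AT1G76590 7.75-fold lower (-2.95 ± 0.87, adjusted p = 0.0191), AT4G17900 3.41-fold lower (-1.77 ± 0.32, adjusted p = 0.00139) and AT1G32700 3.28-fold lower (-1.71 ± 0.42, adjusted p = 0.00753). In each of these 4 genes every rootstock bud array lay below every rootstock leaf array. The share of all probe sets without overlap in this contrast was not counted. An unadjusted limma p of at most 0.05 was reached by 4 of the 7 members and by 11392 of the 22746 probe sets. The 4 of 7 called lower stand against 12% of all probe sets called lower in rootstock buds and 13.7% called higher. AT1G31040 ran the other way, 0.91 ± 0.43 higher in rootstock buds with no overlap, but missed the threshold (adjusted p = 0.112). AT1G43000 (-0.18 ± 0.15) and AT5G46710 (0.08 ± 0.26) were not called. The AT1G76590 call was lost without rootstock flower bud replicate 2 (adjusted p = 0.0522), without rootstock flower bud replicate 3 (0.0512) or without rootstock leaf replicate 2 (0.0730).

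In the scion the same contrast was smaller for all 4 leaf-high genes. AT4G17900 was still lower in buds, by -1.23 ± 0.32 (SE, n = 3 and 3, 2.35-fold, adjusted p = 0.0149, limma). AT1G21000 (-1.02 ± 0.69, adjusted p = 0.279), AT1G76590 (-0.77 ± 0.87, adjusted p = 0.523) and AT1G32700 (-0.55 ± 0.42, adjusted p = 0.337) were not called. AT1G31040 was 3.37-fold higher in scion buds than in scion leaves (1.75 ± 0.43, adjusted p = 0.0104), and all 3 bud arrays exceeded all 6 leaf arrays of scion and rootstock. How many of all probe sets did so was not counted. AT1G43000 was 0.44 ± 0.15 lower in buds with an adjusted p of 0.0406, below the 2-fold limit. Of all probe sets, 10.5% were called higher and 7.91% lower in scion buds, so the 1 member higher and 1 lower of 7 lie near the background. AT4G17900 was lost without scion flower bud replicate 2 (-0.86, under 2-fold), without scion leaf replicate 1 (adjusted p = 0.0510) or without scion leaf replicate 2 (0.0505), and AT1G21000 was called without scion flower bud replicate 1 (-1.86, adjusted p = 0.0270). The bud and leaf contrasts share their arrays with the scion and rootstock contrasts, so these results are not separate evidence.

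**Figure D3:**
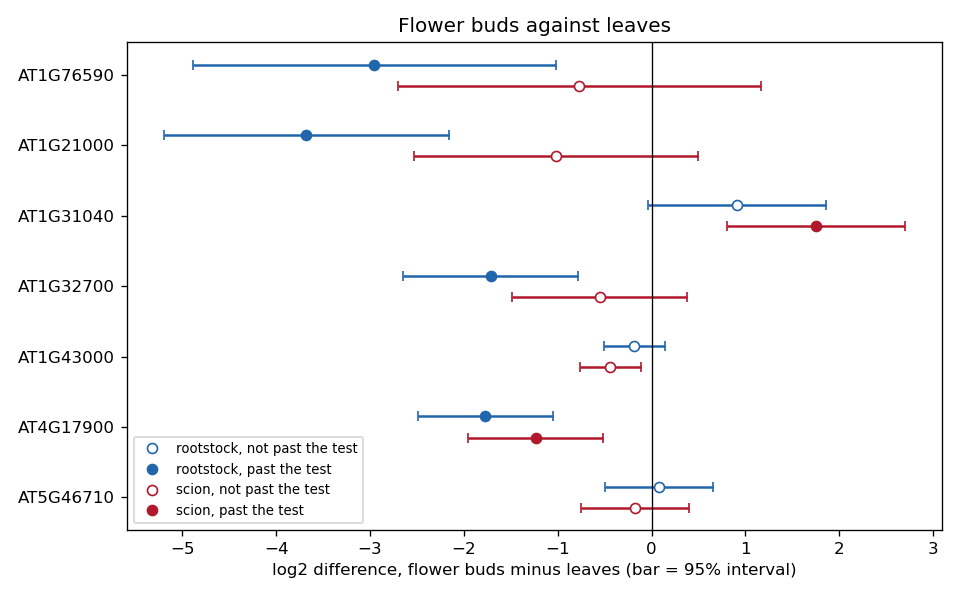
Log2 difference of flower buds minus leaves (x axis) for each PLATZ gene, in the rootstock and in the scion, with 95% intervals from the limma fit. Filled circles passed an adjusted p of 0.05 and 2-fold. AT1G76590, AT1G21000, AT1G32700 and AT4G17900 lie left of 0 in the rootstock, from -3.68 to -1.71, and AT1G31040 lies right of 0 in both.

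Over the 4 groups together, 5 of the 7 differed by limma's F test, against 42.4% of all probe sets: AT4G17900 (adjusted p = 0.00187), AT1G21000 (0.00367), AT1G31040 (0.00803), AT1G32700 (0.0272) and AT1G76590 (0.0306). AT1G43000 (0.0788) and AT5G46710 (0.516) did not pass. The count fell to 3 without any 1 of the 3 rootstock flower bud arrays or without scion leaf replicate 1. The order of group means was scion leaf, rootstock leaf, scion bud, rootstock bud for AT1G76590 (0.99, 0.56, 0.22 and -2.39) and for AT4G17900 (0.60, 0.51, -0.64 and -1.26). For AT1G21000 (0.84, 0.79, -0.23 and -2.84) and AT1G32700 (0.49, 0.18, -0.38 and -1.22) it was rootstock leaf, scion leaf, scion bud, rootstock bud. AT1G31040 had the order scion bud, rootstock bud, scion leaf, rootstock leaf (1.44, 0.16, -0.31 and -0.76). In these 5 genes the difference between the 2 leaf groups did not pass the test, nor did that between the 2 bud groups.

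The scion bud arrays were widely spread in these 5 genes. The SD over 3 scion bud arrays was 1.90 for AT1G76590, as large as which only 0.106% of all probe sets had there. It was 1.56 for AT1G21000 (0.321% of probe sets as large), 1.13 for AT1G31040 (1.12%), 0.95 for AT1G32700 (1.75%) and 0.67 for AT4G17900 (3.93%). The median over all probe sets was 0.16. In rootstock buds the SDs of the same genes were 0.03, 0.32, 0.13, 0.01 and 0.09, beside a median of 0.15, and those of AT1G76590 and AT1G32700 were smaller than in most probe sets (96.4% and 99.5% had an SD as large). In all 5, scion replicate 1 was the highest, replicate 3 the middle and replicate 2 the lowest. The first principal component had the same order, at -47.5, -78.8 and -88.9 for scion buds 1, 3 and 2. How many of all probe sets had it was not counted. Replicate 1 was also the bud array with the most leaf signal. On this array AT1G76590, at 2.18, and AT1G31040 were above all 6 leaf arrays, AT1G21000 above 5, AT1G32700 above 3 and AT4G17900 above none. Of these 5 genes, 4 were called lower in rootstock buds than in leaves. AT1G31040 was measured higher in buds, past the test in the scion only. The cause of the spread was not tested.

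**Figure D4:**
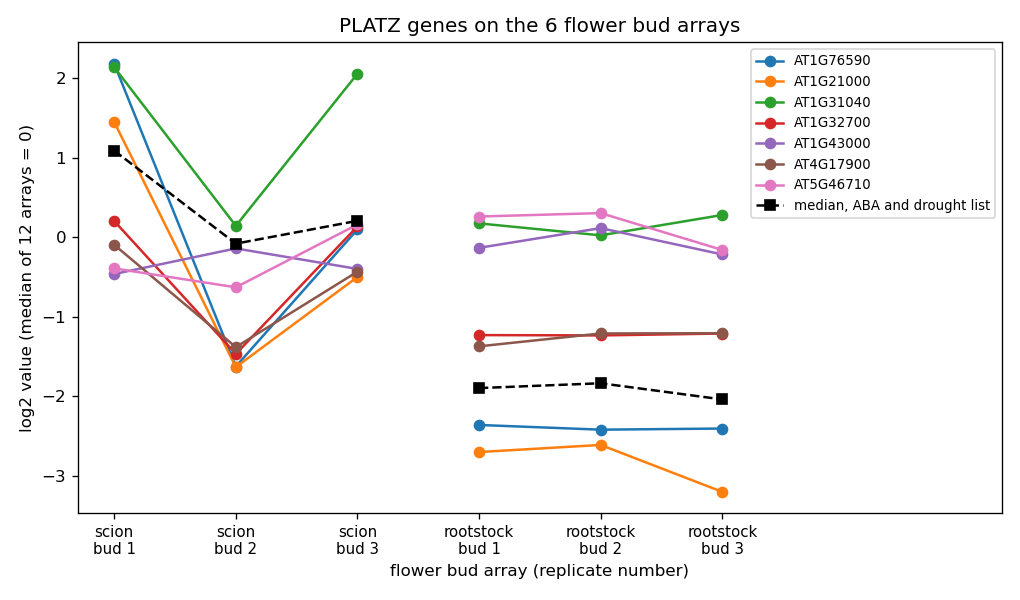
Log2 value (y axis, median of the 12 arrays set to 0) of the 7 PLATZ genes and the median of 12 ABA and drought genes on the 6 flower bud arrays (x axis); lines only join the arrays of a group, whose replicates have no order. In 5 genes scion bud 1 is highest and scion bud 2 lowest of the scion arrays, while the rootstock arrays of each gene span at most 0.59.

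AT1G76590 and AT1G21000 followed each other closely. Their values had a Pearson r of 0.96 over the 12 arrays, 0.85 over the 6 leaf arrays and 0.94 once each group's mean was taken off, as a description of arrays that share replicates and groups. For the 4 leaf-high genes, the 6 pairs had an r of 0.87 to 0.96 over the 12 arrays and 0.82 to 0.95 around group means. Over the 6 leaf arrays the pairs had an r of 0.59 to 0.94. The 4 were grouped by their bud and leaf levels on these arrays, so the r over the 12 was subject to that choice. AT1G31040 had an r near 0 with AT1G76590 (0.11) and AT1G21000 (-0.07) over the 12 arrays. Around group means its r with them was 0.75 and 0.69.

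Of 13946 other probe sets with a single locus, those most like AT1G76590 over the 12 arrays were CSY3 (AT2G42790, a peroxisomal citrate synthase, r = 0.98), SCL5 (AT1G50600, a GRAS family protein, 0.98) and ML2 (AT2G42890, a MEI2-like RNA-binding protein, 0.97). For AT1G21000 they were SCL5 (0.99), AT1G78070 (0.98) and CIPK5 (AT5G10930, a CBL-interacting protein kinase, 0.98). For AT1G31040 they were AT5G38760 (0.98), AT2G01100 (0.96) and AT4G05230 (0.96). An r of at least 0.9 was reached by 131, 259 and 28 probe sets for the 3 genes in that order, so AT1G31040 had the fewest close neighbours. Over the 6 flower bud arrays alone, the likeness was much less selective, with 808, 878 and 396 probe sets at 0.9 or more. The nearest there were AT2G31945, AT1G63880 and AT3G17520 for AT1G76590, AT1G09740, AT1G67860 and RD21A (AT1G47128, a drought-inducible cysteine protease) for AT1G21000, and AT3G07350, AT1G49180 and EXLA1 (AT3G45970, an expansin-like protein) for AT1G31040. CSY3, SCL5, ML2, CIPK5 and RD21A were named only through the study's tables and were on its list of changed probe sets. They could be found because of that selection. The 8261 unnamed probe sets and the 503 with several genes were not compared, so nearer ones may exist. CSY3 was 1.66 ± 0.44 higher in scion than in rootstock buds (SE, n = 3 and 3, adjusted p = 0.152, limma) and SCL5 1.01 ± 0.34 (adjusted p = 0.267), neither called. Both were chosen for their likeness over the same arrays, so these differences are no separate evidence.

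Genes induced by abscisic acid (ABA) and drought were read beside the family because PLATZ members have been tied to drying tolerance. Of 24 listed, 12 were measured, 9 of them on the study's own list of changed probe sets, and named through it, so the direction, the median and the calls were subject to that selection and are not independent evidence. All 12 were measured higher in scion than in rootstock buds, with a median difference of 2.16, and 3 passed limma's test: ABI2 (AT5G57050, a type 2C phosphatase and negative regulator of the ABA response) by 2.30 ± 0.26 (SE, n = 3 and 3, adjusted p = 0.00987), RAB18 (AT5G66400, a dehydrin) by 4.32 ± 0.61 (0.0227) and HAI2 (AT1G07430, an ABA-induced protein phosphatase) by 3.52 ± 0.53 (0.0305). The dehydrin COR47 (AT1G20440) differed by 0.67 ± 0.78 and the transcription factor ANAC019 (AT1G52890) by 2.07 ± 0.54, neither past the test. The 3 genes named by the platform annotation differed by 2.24 (LTI30, AT3G50970, a dehydrin), 0.67 (COR47) and 0.26 (COR15A, AT2G42540, a cold-induced chloroplast protein), and none was called (LTI30 and COR15A are named here after their values were seen). The list's median was 1.09, -0.08 and 0.21 on scion buds 1, 2 and 3 and -1.90, -1.83 and -2.04 on rootstock buds. Its scion arrays had the order 1, 3, 2 seen in the 5 PLATZ genes. That order was also the order of the arrays on the first principal component and in leaf signal, so it was not particular to these genes. In leaves 11 of the 12 were measured higher in the scion, none past the test (median 0.37, HAI2 0.86 ± 0.53, COR47 0.33 ± 0.78). The 3 called in buds stand against 0.237% of all probe sets called higher there. In the rootstock, 11 of the 12 were lower in buds than in leaves, 9 of them called, with a median of -2.19. Of all probe sets, 12% were called lower in that contrast. The part of leaf signal in the list's scion bud difference was not tested.

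Leaf senescence and growth genes were read beside AT1G31040. Of 10 senescence genes 3 were measured. ORE1 and SAG21 were named only through the study's list of changed probe sets, so their difference is not independent evidence, and WRKY53 was named by the platform annotation. ORE1 (AT5G39610), a NAC transcription factor that promotes leaf senescence, was 4.04 ± 0.73 higher in scion than in rootstock buds (SE, n = 3 and 3, adjusted p = 0.0481, limma). SAG21 (AT4G02380), a senescence-associated protein, differed by 2.72 ± 0.97 (adjusted p = 0.300) and WRKY53 (AT4G23810), a senescence regulator, by -0.88 ± 0.78 (adjusted p = 0.791). In leaves the 3 differed by 0.88, -0.65 and -0.67 and none passed. Of 12 growth-regulating factors and their coactivators, only GIF1 (AT5G28640), a coactivator of leaf cell proliferation and likewise named through that list, was measured, at -0.70 ± 0.35 in buds (adjusted p = 0.515) and 1.61 ± 0.35 in leaves (adjusted p = 0.194). Of 9 seed maturation genes only EM6 (AT2G40170), a late embryogenesis abundant protein, was measured, at 0.24 ± 0.13 in buds and -0.01 ± 0.13 in leaves, and none of the 6 genes of the SOS salt pathway was found.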

How the data were processed

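RNA of 12 samples was hybridised to Affymetrix ATH1 arrays, 1 array per sample. The deposited values are log2 signals that the authors made by RMA in GeneSpring, and each probe set's median over the 12 arrays is 0, so no absolute level can be read. The methods describe 3 independent biological replicates, with buds and leaves of scion and rootstock taken from the selected grafted plants, so the 4 groups may share plants. After 64 control probe sets were left out, 22746 were fitted in limma 3.58.1 (R 4.3.3) as 4 group means, with Benjamini-Hochberg adjustment over all of them. Calls needed a fold of 2 or more and an adjusted p of 0.05 or less, with no fold limit for the interaction and the 4-group F test. The array number limits the precision.

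Probe sets were named through the platform annotation, matched to RefSeq loci (13484), or through the study's tables (469 more), while 503 with several genes and 8261 unnamed ones stayed in the fit. The values could not show whether the probes of one family member also bind another's transcript. The members and gene lists were chosen with earlier results of these data known. Besides every PLATZ probe set, genes were named by rule: in each list, up to 3 past the scion test by adjusted p and up to 2 others by lowest locus number, and the 3 highest Pearson correlations with AT1G76590, AT1G21000 and AT1G31040 over 12 and over 6 flower bud arrays.

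Same-numbered scion and rootstock leaf arrays deviated together (r of 0.342, 0.714 and 0.816 for replicates 1 to 3). Leaf arrays of unlike number had an r from -0.788 to 0.396, the highest between scion leaf 2 and rootstock leaf 1. The main fit paired no arrays, and the replicate blocks were alternatives only. Same-numbered flower bud arrays had an r of 0.0234, 0.0741 and 0.201. The sources do not say that equal numbers mean the same plant. The model was tested on simulated data. The alternatives were 12 fits without 1 array, replicate blocks, separate organs, array weights, a robust prior, a plain F test over the 4 groups with the fold of each contrast, array centring, probe sets with 1 locus and no fold limit.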

Additional observations from a re-analysis of the deposited data

How the results depend on the processing

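Each of 35 differences (7 genes in 5 contrasts) was recomputed under the alternatives that could be fitted, 693 values in all. Of these, 660 kept their sign and their side of the threshold, 11 passed it newly, 8 lost it and 14 changed sign, none of them a called difference. For scion against rootstock buds, the count of members called was 0, and 0 to 2 with 1 array left out. It was 1 with the replicate block within organ (AT1G21000, adjusted p = 0.0306), 3 with array weights (AT1G76590, AT1G21000 and AT1G31040) and 2 with the p of a plain F test over the 4 groups joined to the fold of the contrast, which tests another hypothesis with another estimate of the spread. Those settings also raised the calls over all probe sets, from 54 higher and 36 lower to 354 and 112 with the block, 479 and 160 with weights and 421 and 145 with the plain F test. Leaving out rootstock flower bud replicate 1 left 0 and 0. The replicate block over all 12 arrays changed no member's call, and neither block changed a member's call in leaves. In rootstock buds against leaves, 4 members were called, and 3 to 4 with 1 array left out, while 2 met the criterion of the plain 4-group F p with that contrast's fold. In the scion the count was 2, and 1 to 3 with 1 array left out. Over the 4 groups it was 5, then 3 with the plain F test and 3 to 5 with 1 array left out. AT1G43000 in scion buds against leaves (-0.44) was called without the fold limit.

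Sign changes with 1 array left out were confined to differences not called: in scion against rootstock leaves AT1G76590 ran from -0.16 to 1.05, AT1G21000 from -0.50 to 0.32, AT1G43000 from -0.1058 to 0.0773 and AT4G17900 from -0.10 to 0.34. In buds against leaves AT1G76590 ran from -1.75 to 0.15 in the scion, and AT5G46710 from -0.13 to 0.23 in the rootstock and -0.3963 to 0.0025 in the scion, where array weights gave 0.0594. The array weights were estimated gene by gene, as the default estimate did not converge. With a gap of 4 in place of 5, chosen after seeing the data, 40 leaf-specific probe sets gave leaf shares of 9.59%, 0.356% and 1.58% in scion buds 1, 2 and 3. The cause of these changes was not tested.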

Other observations

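Over the 6 leaf arrays AT5G46710 ran against 3 leaf-high members, with a Pearson r of -0.95 with AT1G76590, -0.86 with AT1G21000 and -0.84 with AT4G17900. With AT1G32700, the other leaf-high member, the r was weaker, at -0.57. These describe 6 arrays from 3 replicate numbers. On leaf replicate 3, AT5G46710 read 0.24 in the scion and 0.35 in the rootstock, while AT1G76590 read -0.26 and -0.10. On the second principal component, with 11.4% of the variance, these 2 arrays were at -70.1 and -70.6 and the remaining leaf arrays at -4.96 to 54.1. In flower buds the r of AT5G46710 with AT1G76590, AT1G21000 and AT4G17900 was -0.36, -0.39 and -0.12, and with AT1G32700 it was -8e-04. AT1G43000 ran against AT1G31040, with an r of -0.88 over the 6 bud arrays, although its values there spanned only -0.46 to 0.11.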
